A study of Mus musculus with 2 samples.

Results

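Molecular chaperones and protein folding genes were followed in mouse lymphocytes of the Th1 and Th17 types, each set against Th0 cells. Members were taken by their annotated symbol. They comprised the genes whose name starts with Hspa, Hspb, Hspd, Hspe, Hsph, Hsp90, Dnaja, Dnajb, Dnajc or Pdia, together with Tcp1, Cct2, Cct3, Cct4, Cct5, Cct6a, Cct7, Cct8, Calr and Canx. Of the 17501 named genes on the arrays, 84 fitted this rule. By the known location of their proteins, 45 are cytosolic, 8 mitochondrial and 20 resident in the endoplasmic reticulum (ER). The remaining 11 are of other or unassigned location. The symbol rule also takes in Hspbp1, a cofactor of HSP70 proteins, and Hspb11 and Hspbap1, which are not classical small heat shock proteins. Of 89 protein-coding mouse genes in the RefSeq list that carry such a name, 5 had no one-gene probe and were not analysed here: Hsp90ab1, Hspa1b, Hspb6, Dnajc13 and Dnajc21.

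Each of the 2 microarrays was hybridised with RNA of a polarized population labelled with Cy5 and RNA of Th0 cells labelled with Cy3. All RNA came from lymphocytes of a TRP-1 mouse, and the study concerned tumour-specific Th17 cells in melanoma. One hybridisation paired Th1 with Th0 RNA (called the Th1 array) and the other paired Th17 with Th0 RNA (called the Th17 array). There was no replicate and no dye swap, so no difference could be tested against the spread between samples, and the number of arrays limits the precision of every value below. The sources used here do not state the age or number of the mice, whether cells were pooled, or whether both arrays held the same Th0 RNA.

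Chaperones bind unfolded or partly folded proteins and keep them from aggregating. HSP70 proteins work in cycles of ATP binding and hydrolysis that are started by J proteins, the Dnaj families, while HSP90 proteins finish the folding of kinases and receptors. Ring-shaped chaperonins enclose their clients, TRiC in the cytosol and Hspd1 with its lid Hspe1 in mitochondria. In the ER, the HSP70 protein BiP, the lectins calnexin and calreticulin and the disulfide isomerases fold secreted and membrane proteins, and the unfolded protein response raises their genes when folding demand grows. Activated lymphocytes that grow, divide and secrete cytokines depend on all 3 systems.

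Values are log2 ratios of the 2 channels, so 1 is a 2-fold difference, and a gene with several probes is given by their mean ± SD over n probes. That SD describes probes of one hybridisation and not samples. Pooled over the 34 members with several probes it was 0.59 on each array, and 50 members rest on 1 probe. The order of the ratio is not settled. The titles and dyes name the polarized cells over Th0, by which a positive value means higher expression in the polarized population. However, Il17a lay at −5.37 and Il17f at −2.38 on the Th17 array. On the Th1 array Ifng lay at −2.02 and Tbx21 at −1.25. Every sign below is therefore as deposited, and with the order turned each "positive side" means higher in Th0 cells.

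Markers of other cells moved as well. On the Th1 array all 15 measured myeloid markers were positive, 12 of them by 2-fold or more, with a range of 0.03 to 2.98 and a median of 1.80. On the Th17 array 9 of the 15 were positive, 6 of them by 2-fold or more, with a range of −2.04 to 2.14 and a median of 0.56. Pan T cell genes lay mostly opposite, with 10 of 11 below 0 on the Th1 array (median −0.53) and 9 of 11 on the Th17 array (median −0.41). B cell markers had medians of −0.15 and 0.14 over 7 genes. The part of these shifts in the values below was not tested, and in such bulk RNA fewer cells of a type and less RNA per cell cannot be told apart.

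The members' median lay on the positive side of 0 and of the median of all genes on both arrays. Centred on control genes it turned to −0.11 on the Th1 array, where the median of all genes was −0.33. On the Th1 array 49 of 84 members (58.3%) and 42.6% of all named genes were above 0, with medians of 0.14 and −0.08. On the Th17 array 48 of 84 members (57.1%) and 46.3% of all named genes were above 0, with medians of 0.13 and −0.03. The 14 widely expressed control genes had medians of 0.25 and −0.02, and centred on them the members' median on the Th17 array was 0.14.

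Few members were far from 0. On the Th1 array 9 of 84 members were at least 2-fold apart, 6 positive and 3 negative, where 10.2% of all genes were. By side, 7.14% of members and 3.27% of all genes were 2-fold positive, and 3.57% and 6.92% 2-fold negative. On the Th17 array 10 members were 2-fold apart, 5 on each side, against 8.42% of all genes (2.9% positive and 5.52% negative). The members' shares on both sides together, 10.7% and 11.9%, are near these backgrounds. The split depended on the centring. With the arrays centred on the probe median it was 10 positive and 2 negative members on the Th1 array and 5 and 4 on the Th17 array, where all genes gave 761 and 989, and 547 and 892. Centred on control genes it was 3 and 9 members, and 5 and 5, where all genes gave 318 and 2047, and 520 and 936. Centred on each array's most repeated value, the one that more probes held than any other, it was 41 and 0 members, and 18 and 2, where all genes gave 5214 and 297, and 1429 and 486. Each centring adds 1 constant to all values of an array, so all genes shift with the members. Centred on the most repeated value, 48.8% of members and 31.5% of all genes were past 2-fold on the Th1 array. On the Th17 array these shares were 23.8% and 10.9%. On control genes they were 14.3% and 13.5%, and 11.9% and 8.32%. Only control-gene centring on the Th1 array lowered values (by 0.25), so no other centring could turn a positive value.

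**Figure D1:**
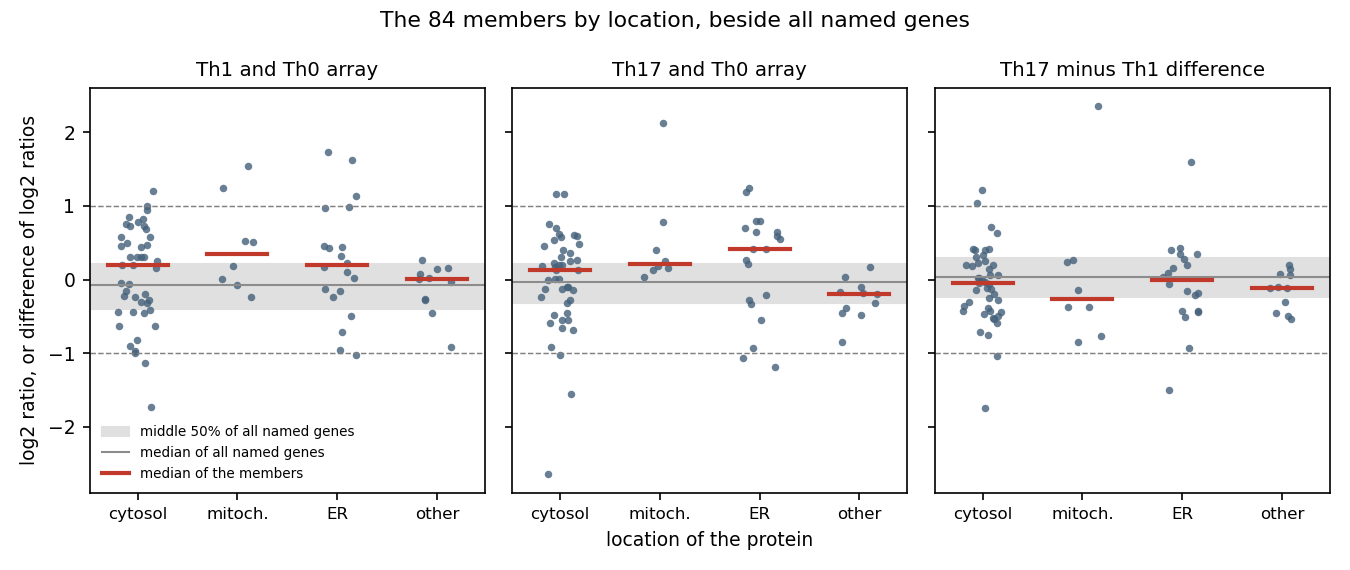
Log2 ratios of the 84 members on each array and the difference of the ratios (vertical axes), by the location of the protein; points are genes, red bars the medians of the members, the grey band and line the middle 50% and the median of all named genes, and dashed lines mark 2-fold. Medians on the Th17 array were 0.12 in the cytosol, 0.21 in mitochondria and 0.42 in the ER, and the single mitochondrial point past 2-fold there is Dnajc15.

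The ER members held the 2 highest values of all members on the Th1 array. Hsp90b1, the HSP90 protein of the ER, lay at 1.72 on the Th1 array (3.30-fold) and 0.80 on the Th17 array. Hspa5, which encodes BiP, the central HSP70 protein of the ER and the sensor partner of the unfolded protein response, lay at 1.62 (3.07-fold) and 1.19 (2.28-fold). Both were positive on either array, and each rests on 1 probe. Hspa13, a small HSP70 relative bound to microsomes, lay at 0.43 ± 1.18 and −1.07 ± 2.75 (n = 2 probes). Its probes disagreed: one held 1.26 and 0.88, the other −0.40 and −3.01. The value −3.01 matched a weaker channel of 1 unit. Such a match is read from the ratio alone, since the deposited values hold no signal level. Without that probe Hspa13 lay at 1.26 and 0.88.

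The disulfide isomerases, which form and rearrange disulfide bonds, lay on the positive side in 4 of 5 cases on each array. Pdia4 was the highest on the Th1 array, at 1.14 (2.20-fold), and lay at 0.70 on the Th17 array. Pdia5 lay at 0.44 ± 0.00 and 0.80 ± 0.09 (n = 2 probes). Pdia3, which works on glycoproteins together with the lectin chaperones, lay at 0.46 and 0.65, and Pdia6 at 0.32 and 0.41. Pdia2, a pancreas-enriched isomerase, was the exception at −0.49 and −0.55. The family median was 0.44 on the Th1 array and 0.65 on the Th17 array. Centred on control genes it was 0.19 and 0.67. No other centring, nor any on the Th17 array, could turn these positive medians.

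The 2 lectin chaperones lay on opposite sides. Canx, the membrane-bound calnexin, lay at 0.98 ± 0.34 on the Th1 array and 0.55 ± 0.16 on the Th17 array (n = 2 probes). Calr, its soluble relative calreticulin, lay at −1.03 (2.04-fold) and −1.18 (2.27-fold), and was the lowest ER member on both arrays. Calr rests on 1 probe, so no second probe can be set beside it. Calr and the J protein gene Dnajb14 (−0.71 and −0.92) were the ER members under −0.7 on both arrays.

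The 10 J proteins of the ER did not lean together, with 5 above and 5 below 0 on the Th1 array and 6 and 4 on the Th17 array. Dnajc3, the P58IPK cochaperone of BiP, lay at 0.96 and 1.24 (2.36-fold). Dnajb11, another BiP partner, lay at −0.96 and 0.64, on opposite sides of the 2 arrays. Dnajb9, a J protein that binds the stress sensor Ern1, lay at −0.13 ± 0.50 and 0.21 ± 0.36 (n = 2 probes). Dnajc1, a ribosome-associated J protein, lay at 0.17 ± 0.19 and 0.59 ± 0.71, and Dnajc10, a J protein that reduces disulfides, at 0.23 ± 0.03 and −0.27 ± 0.18 (n = 2 probes each). Dnajb12, Dnajc14, Dnajc18 and Dnajc25 ranged from −0.24 to 0.10 on the Th1 array and from −0.34 to 0.42 on the Th17 array.

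**Figure D2:**
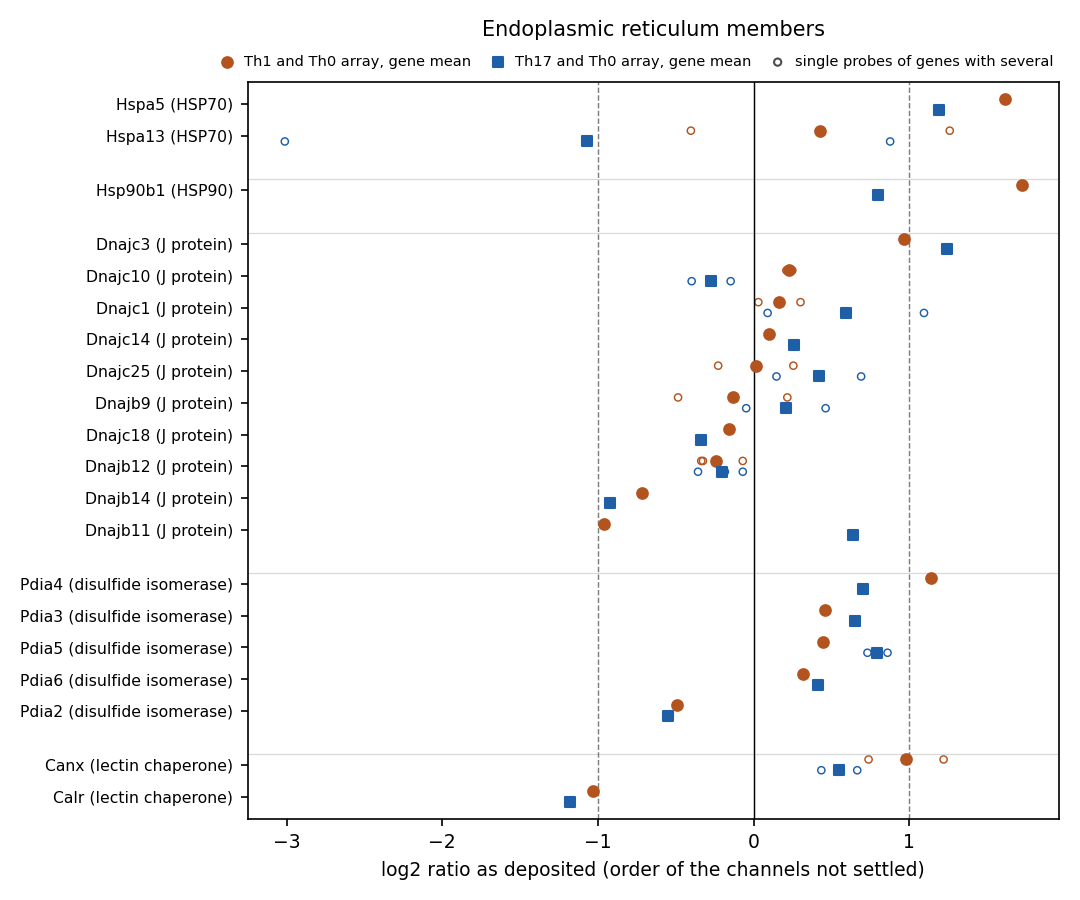
Log2 ratios as deposited (horizontal axis) of the 20 ER members on the Th1 array (brown circles) and the Th17 array (blue squares), grouped by family; open circles are single probes where a gene has several, and dashed lines mark 2-fold. Hspa5 lies past 1 on both arrays, Calr lies past −1 on both, and the 2 probes of Hspa13 lie far apart.

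Promoter sequences bear on the ER genes, because the unfolded protein response acts through the ER stress response element (ERSE), bound by ATF6 and XBP1 with NF-Y. RefSeq promoters (build GRCm38.p6, 250 bases before to 50 after each start) were given for 70 of the 84 members. The ERSE was searched on both strands as CCAAT followed after 9 bases of any kind by CCACG. It was found in 6 of 18 ER members with a promoter (33.3%), in 0 of 37 cytosolic and 0 of 5 mitochondrial ones, and in 0.137% of the 27025 genes of the table. A match is a description of letters and not of binding. The 6 ER members are shown because they include both the highest and the lowest ER values. Sequences run 5′ to 3′ on the gene's strand, with the fixed letters of the element in capitals. The Canx window also overlaps the gene Gm46280.
Hspa5, chr2:34772005-34772063, + strand: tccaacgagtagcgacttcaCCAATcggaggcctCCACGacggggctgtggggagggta
Hsp90b1, chr10:86705513-86705676, − strand: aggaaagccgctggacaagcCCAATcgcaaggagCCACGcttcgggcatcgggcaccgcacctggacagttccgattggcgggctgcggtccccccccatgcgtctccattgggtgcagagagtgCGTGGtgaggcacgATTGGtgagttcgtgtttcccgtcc
Dnajc3, chr14:118937807-118937865, + strand: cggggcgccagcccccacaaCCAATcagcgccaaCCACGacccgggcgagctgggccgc
Pdia6, chr12:17266471-17266529, + strand: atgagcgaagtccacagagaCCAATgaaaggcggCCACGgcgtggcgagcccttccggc
Canx, chr11:50325780-50325838, − strand: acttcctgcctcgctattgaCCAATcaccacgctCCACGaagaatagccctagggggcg
Calr, chr8:84847055-84847113, − strand: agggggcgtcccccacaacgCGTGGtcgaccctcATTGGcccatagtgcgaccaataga

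Hsp90b1 held 2 elements in opposite orientations and the other 5 genes 1 each, with Calr in the reverse orientation. Counted from the start of the gene, the element lay at −65 to −47 in Hspa5, −105 to −87 in Dnajc3, −98 to −80 in Pdia6, −145 to −127 in Canx and −162 to −144 in Calr. Set beside the arrays, 5 of these 6 genes lay on the positive side of both (0.32 to 1.72 on the Th1 array and 0.41 to 1.24 on the Th17 array) and Calr on the negative side of both. Of all 20 ER members 13 were positive on the Th1 array and 13 on the Th17 array, counted for each array alone. Hspa13, Dnajc10, Dnajb9 and Dnajb11 lay on opposite sides of the 2 arrays. The share of all genes positive on both arrays was not counted. Among the ER genes of the lists below, the ERSE was also found in Creld2, Syvn1 and Ero1b, positive on both arrays. Derl3 held it too and lay at −0.47 and −0.0006. Dnajb11 held the related ERSE-II (searched on both strands as ATTGG, 1 base of any kind and CCACG, and present in 0.0444% of genes) at 8 to 18 of its own transcript, and is shown because its 2 arrays disagreed.
Dnajb11, chr16:22857845-22857869, + strand: ggcggcgATTGGcCCACGcctggct

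The other ER searches gave little. The unfolded protein response element core TGACGTGG was found in 1 member, Dnajc25, and in 0.714% of all genes. The CHOP-like core TGATGCAA was found in 0 members and in 1.03% of all genes, which says only that these letters are not in the windows.

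Among mitochondrial members the core chaperones lay on the positive side, further on the Th1 array than on the Th17 array. Hspa9, the HSP70 protein of the matrix known as mortalin, lay at 1.55 (2.92-fold) and 0.79. Hspd1, the chaperonin HSP60, lay at 1.25 ± 0.54 (2.37-fold) and 0.40 ± 0.60 (n = 2 probes). Its single probes lay at 0.82 and −0.02 on the Th17 array. Its lid Hspe1 lay at 0.53 and 0.15. Both chaperonin genes kept a positive value on the Th1 array when centred on control genes, where their median was 0.64. On the Th17 array, where that centring raises values, their median was 0.29. Pseudogenes of Hspd1 and Hspe1 exist in the mouse, and how far their transcripts reach these probes was not tested.

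Hspd1 and Hspe1 run in opposite directions from neighbouring starts on chromosome 1, and a heat shock element, the site of HSF1, was found close to both. Searched on both strands as 3 alternating units of GAA and TTC with 2 bases of any kind between them, it was found in 4 of the 70 members with a promoter (Hspd1, Hspe1, Hsph1 and Dnajb6) and in 0.662% of all genes. In Hspd1 and Hspe1 the match was the same stretch of genome, with 2 overlapping matches. The element lies before the start of Hspe1 and before 1 of the 2 starts of Hspd1, but the annotated Hspd1 gene, counted from its other start, spans it. It is shown because both genes share it, with the matched bases in capitals.
Hspe1, chr1:55088053-55088082, + strand: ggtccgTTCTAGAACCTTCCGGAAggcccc

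The mitochondrial J proteins included the widest gap between the arrays. Dnajc15, a J protein of the inner membrane also known as MCJ and a negative regulator of respiratory complex I, lay at −0.23 on the Th1 array and 2.12 on the Th17 array (4.34-fold). That was the highest value of any member on the Th17 array, and it rests on 1 probe. Dnaja3, the matrix J protein Tid1, lay at 0.50 ± 0.89 and 0.13 ± 0.41 (n = 2 probes), with single probes at 1.13 and −0.12 on the Th1 array. Dnajc11, Dnajc19 and Dnajc30 ranged from −0.075 to 0.19 on the Th1 array and from 0.04 to 0.24 on the Th17 array. All 8 mitochondrial members were above 0 on the Th17 array, by as little as 0.04, and 6 of 8 on the Th1 array. Over all named genes 46.3% were above 0 on the Th17 array and 42.6% on the Th1 array.

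TRiC, the cytosolic chaperonin that folds actin and tubulin, is built from subunits that are needed in equal number. On the Th1 array 7 of its 8 measured genes lay within a narrow positive range, from 0.47 for Tcp1 to 0.998 for Cct8. Between them were Cct2 at 0.57, Cct7 at 0.72, Cct3 at 0.73, Cct5 at 0.76 and Cct6a at 0.81. Cct4 lay apart, at −0.62. None reached 2-fold, although Cct8 was the member nearest to it from below.

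On the Th17 array the same subunits were closer to 0. Cct8 lay at 0.61, Cct2 at 0.45, Cct5 at 0.41, Cct6a at 0.35, Cct3 at 0.19 and Cct7 at 0.12. Here Cct4, at 0.59, lay among the others, and Tcp1 was the lowest at −0.28 ± 0.29 (n = 2 probes). The TRiC median was 0.73 on the Th1 array and 0.38 on the Th17 array. On control-gene centring it was 0.47 and 0.40, and on the Th17 array that centring could not turn a positive value. Apart from Tcp1 each subunit rests on 1 probe, Cct4 included.

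The large cytosolic chaperones were modest and mixed. Hsp90aa1, the inducible HSP90, lay at 0.78 ± 0.89 and 0.58 ± 0.48 (n = 3 probes), with single probes at 1.23, −0.25 and 1.35 on the Th1 array. Hspa8, the constitutive HSP70, was measured most evenly of the members with 3 probes, at 0.20 ± 0.01 and −0.32 ± 0.06. Hspa1a, the classical inducible HSP70, lay at −0.81 and −0.10, and its near-identical copy Hspa1b may share its signal. Hspa2, an HSP70 best known from spermatogenesis, lay at 0.94 and 1.16 (2.24-fold).

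The remaining HSP70 genes were Hspa12a, Hspa12b, Hspa14 and Hspa1l, which ranged from −0.30 to −0.04 on the Th1 array and from −0.55 to 0.18 on the Th17 array. The HSP110 proteins exchange nucleotides on HSP70. Hsph1 lay at 0.58 and 0.76 and Hspa4 at 0.46 ± 0.01 and 0.48 ± 0.18 (n = 2 probes). Hspa4l lay at 0.49 ± 0.75 and −0.54 ± 0.12 (n = 2 probes), on different sides. The HSP70 cofactor Hspbp1 was alike on both arrays, at −0.44 and −0.45.

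**Figure D3:**
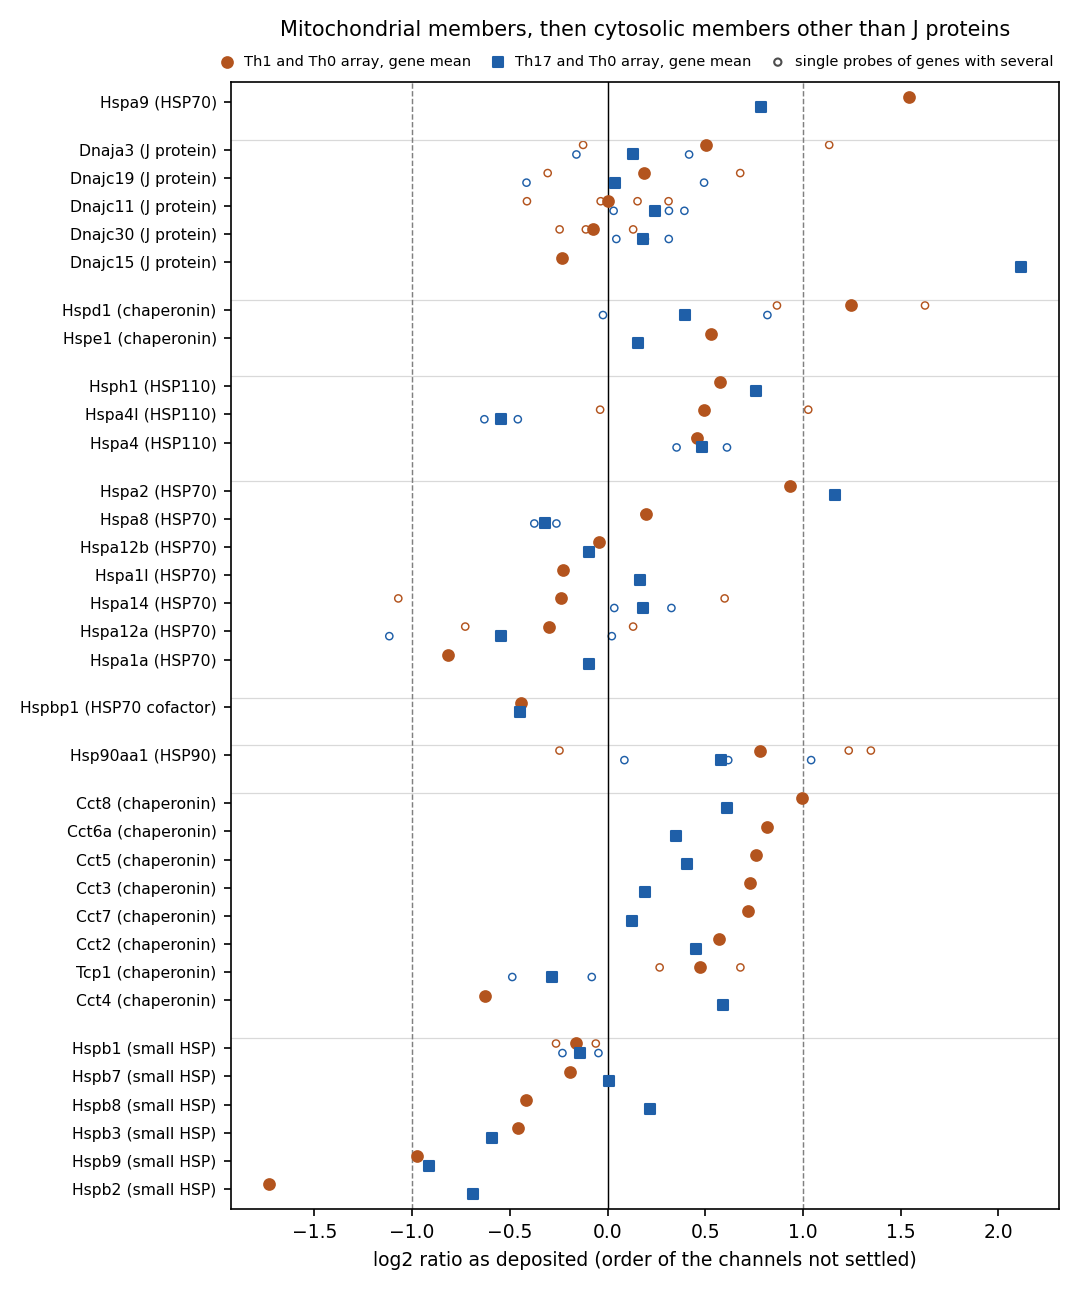
Log2 ratios as deposited (horizontal axis) of the 8 mitochondrial members and of the 26 cytosolic members that are not J proteins, with symbols as in the plot of ER members. The TRiC subunits form a column between 0.47 and 0.998 on the Th1 array, apart from Cct4 at −0.62, and Dnajc15 stands alone at 2.12 on the Th17 array.

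The small heat shock proteins, which hold unfolded proteins without using ATP, lay low. Of all 17501 named genes 10040 were below 0 on the Th1 array and 9390 on the Th17 array. All 6 small heat shock genes were below 0 on the Th1 array, with a median of −0.44. On the Th17 array 4 of 6 were, with a median of −0.37. These medians turned to 0.41 and 0.06 when the arrays were centred on the most repeated value. All genes then had medians of 0.77 and 0.39. Hspb2, known from muscle, lay at −1.73 (3.32-fold) and −0.69, and Hspb9, known from testis, at −0.98 and −0.92. The value of Hspb2 on the Th17 array matched a weaker channel of 5 units. Hspb1, the most widely expressed of them, lay close to 0 at −0.16 ± 0.14 and −0.14 ± 0.13 (n = 2 probes), and 1 of these probes matched a weaker channel of 2 units on the Th1 array. Hspb3, Hspb7 and Hspb8 lay between −0.46 and −0.19 on the Th1 array and between −0.59 and 0.22 on the Th17 array.

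The 19 cytosolic J proteins spread widely around a median of 0.20 on the Th1 array and 0.01 on the Th17 array. The first turned to −0.06 on control-gene centring, where the median of all genes was −0.33. Dnajc12, a partner of aromatic amino acid hydroxylases, lay at 1.20 ± 0.76 (2.29-fold) and 0.70 ± 0.06 (n = 2 probes). Dnajb4 lay at 0.85 ± 0.79 and 1.16 ± 1.30 (n = 3 probes), since 2 of its probes read 1.75 and 2.06 on the Th17 array and the third −0.33. Dnajb1, the heat-inducible partner of HSP70, lay at 0.16 and −0.12. Dnaja1, a constitutive partner, lay at −0.99 ± 1.08 and −0.66 ± 0.60 (n = 3 probes), and its probes ranged from −2.21 to −0.16 on the Th1 array.

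J protein genes known from the germ line held the lowest values of any member on the Th17 array. Dnajb7 lay at −0.90 and −2.64 (6.25-fold), and Dnajb3 at −1.14 (2.20-fold) and −1.56 (2.95-fold). Dnajb8 and Dnajb13, also known from testis, lay at 0.31 and 0.25 and at −0.07 and 0.19. Dnaja4 lay at −0.32 and −1.02 (2.03-fold). The deposited ratios hold no signal level, so whether such genes were expressed at all in these cells cannot be read from them.

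The other 10 cytosolic J proteins, Dnaja2, Dnajb2, Dnajb5, Dnajb6, Dnajc2, Dnajc5, Dnajc5b, Dnajc5g, Dnajc6 and Dnajc7, ranged from −0.63 to 0.69 on the Th1 array and from −0.48 to 0.61 on the Th17 array. Dnajc2, a ribosome-bound J protein with the most probes of any member, lay at 0.44 ± 0.39 and 0.01 ± 0.27 (n = 5 probes). Dnajc5, the vesicle protein CSP, was steady at 0.30 ± 0.11 and 0.27 ± 0.10 (n = 3 probes). Of the 11 members placed elsewhere 0 reached 2-fold on either array. Hspbap1 was the lowest of them on both, at −0.92 ± 0.36 and −0.85 ± 0.72 (n = 2 probes). Of its probes 1 matched a weaker channel of 4 units on the Th1 array. The highest were Dnajc8, a splicing-associated J protein, at 0.26 on the Th1 array and Dnajc4 at 0.17 on the Th17 array.

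**Figure D4:**
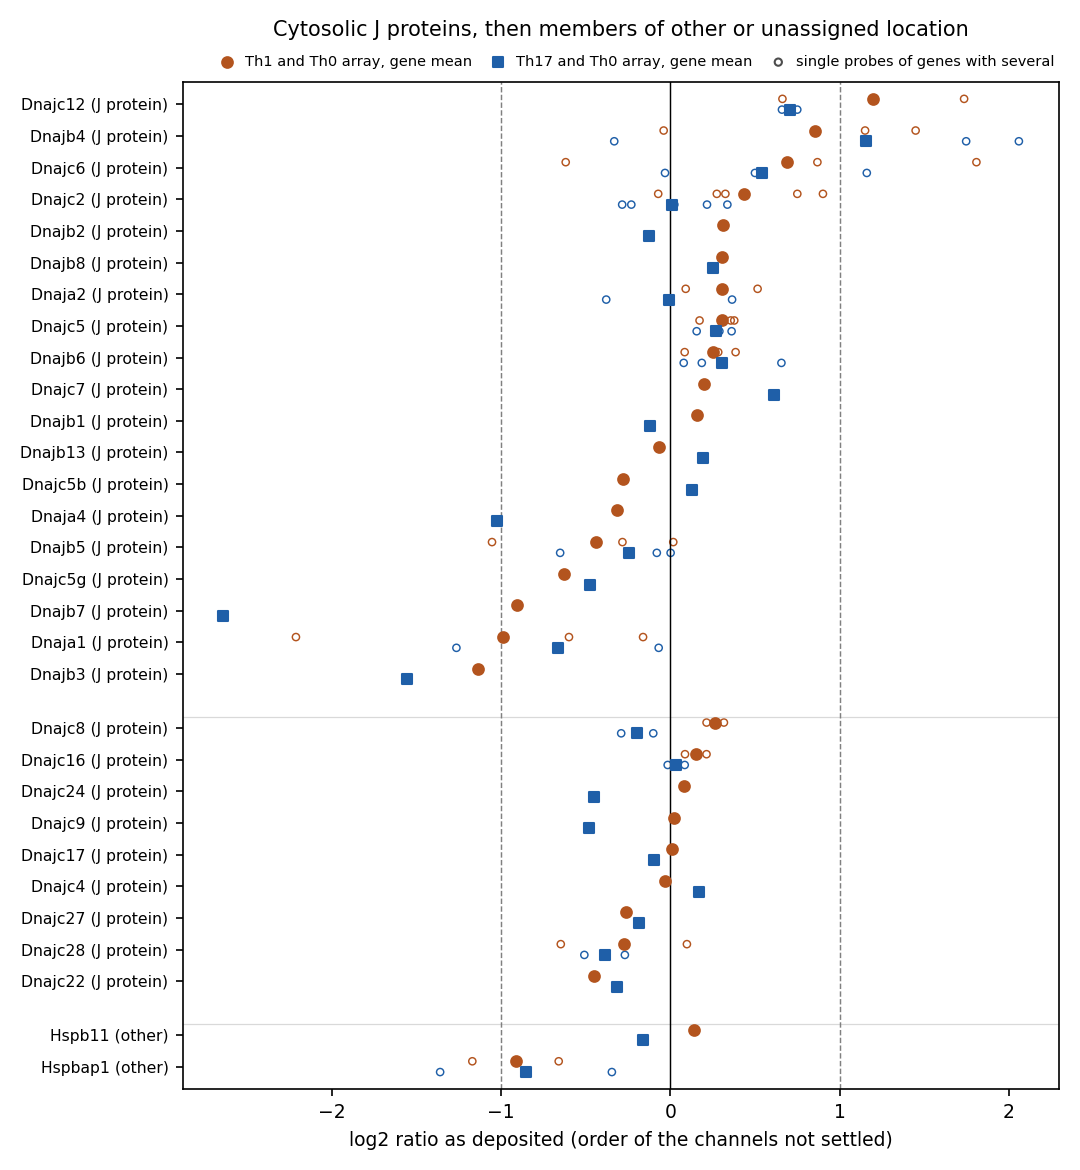
Log2 ratios as deposited (horizontal axis) of the 19 cytosolic J proteins and the 11 members of other or unassigned location, with symbols as in the plot of ER members. Dnajb7 at −2.64 is the lowest member on the Th17 array, and the open circles of Dnajb4 and Dnajc6 show probes of 1 gene on both sides of 0 on the Th1 array.

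Th17 was set against Th1 by subtracting each Th1 array value from its Th17 array value, which assumes the same order of channels and the same Th0 RNA on both. By the order of the titles a positive difference means higher in Th17 than in Th1 cells. With the order turned on both arrays it means higher in Th1 cells, and a negative one higher in Th17 cells. Because the 2 arrays share Th0 as their reference, their likeness is not taken as a result, and the values above stand side by side. Of the 84 members 7 were at least 2-fold apart in the difference, 4 positive and 3 negative, near the background of 8.14% of all genes (4.53% positive and 3.61% negative). The split was 3 and 3 with the arrays centred on the probe median (all genes 691 and 722), 4 and 2 on control genes (1363 and 409) and 2 and 9 on the most repeated value (370 and 1660). The members' median was −0.08, against 0.04 for all genes, and turned to 0.18 on control-gene centring, where that of all genes was 0.31.

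The largest difference was that of Dnajc15, at 2.35 (5.09-fold). Dnajb11 followed at 1.60 (3.03-fold), Cct4 at 1.22 (2.33-fold) and Hspb2 at 1.04. On the negative side lay Dnajb7 at −1.74 (3.34-fold), Hspa13 at −1.50 ± 1.57 and Hspa4l at −1.04 ± 0.63 (n = 2 probes each). Without its probe that matched a weaker channel of 1 unit Hspa13 lay at −0.38. Hspb2, whose only probe matched a weaker channel of 5 units on the Th17 array, dropped out. That left 5 members past 2-fold, 3 positive and 2 negative, against 7.31% of all genes. These 7 genes come from 5 families in all 3 compartments, and the 5 with 1 probe have no second probe to set beside it.

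Chaperones of the fixed panel lay on both sides in the difference. On the positive side Dnajb11 and Cct4 lay past 2-fold and Hspa1a at 0.72. Dnajb9, Dnaja1, Dnajc3, Pdia3, Hsph1, Pdia6, Hspa4 and Hspb1 were positive too, from 0.02 to 0.34. Several others had negative differences of less than 2-fold. Hsp90b1 differed by −0.93, Hspd1 by −0.85 ± 0.06 (n = 2 probes), Hspa9 by −0.76, Tcp1 by −0.76 ± 0.00 (n = 2 probes) and Hspa5 by −0.43. Centred on the most repeated value Hsp90b1, Hspd1, Hspa9 and Tcp1 passed 2-fold, at −1.35, −1.27, −1.18 and −1.18, and on control genes they lay between −0.66 and −0.49. Myeloid markers were negative in the difference too, 12 of 15 of them and 8 past 2-fold, with a range of −2.88 to 0.22 and a median of −1.21. Their part in these differences was not tested. Of the 8 TRiC genes 7 had a negative difference, with a median of −0.43 over all 8. This median was −0.16 on control genes, the only centring that raises the differences, and −0.85 on the most repeated value. Control genes themselves had a median difference of −0.22, and 12 of 14 were negative. Of all 17501 named genes 8060 had a negative difference. The 2 probes of Hspd1, and those of Tcp1, gave nearly the same difference although their ratios on each array lay apart. Hspa8 differed by −0.52 ± 0.06 (n = 3 probes). Disulfide isomerases had a median difference of 0.09, which turned to −0.33 when centred on the most repeated value, where that of all genes was −0.38.

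Genes of the same pathways outside the symbol rule were read from 4 lists. Over all named genes 42.6% were above 0 on the Th1 array, with 3.27% 2-fold positive and 6.92% 2-fold negative. On the Th17 array these shares were 46.3%, 2.9% and 5.52%. Of 28 unfolded protein response and ER degradation genes, 20 were above 0 on the Th1 array (median 0.32, with 4 at least 2-fold positive and 0 negative) and 18 on the Th17 array (median 0.33, 2 and 1). Eif2ak3, the stress sensor PERK, lay at 1.48 and 2.43. Creld2 lay at 1.34 and 1.19, and Chac1 at 1.47 and 0.95. Xbp1, the transcription factor that drives ER chaperone genes, lay at 1.15 and −0.75, a difference of −1.90 on 1 probe. The degradation lectin gene Os9 was the lowest at −0.81 ± 0.88 and −1.77 ± 3.49 (n = 2 probes).

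Of 20 other ER folding genes 16 were above 0 on the Th1 array (median 0.43, 2 positive and 1 negative past 2-fold) and 17 on the Th17 array (median 0.32, 1 and 1). Fkbp11, a prolyl isomerase abundant in secretory cells, lay at 2.52 and 1.49, Serp1 at 1.38 and 0.99, and the germ-line calnexin relative Clgn at −1.97 ± 1.34 and −1.46 ± 0.53 (n = 2 probes). P4hb, the founding disulfide isomerase, lay at 0.85 and 0.45. It lay on the same side as 4 of the 5 Pdia genes. Erp44, which retains unassembled proteins, lay at 0.87 and 0.84.

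Of 27 measured cytosolic cochaperones 22 were above 0 on the Th1 array (median 0.40, 1 positive and 1 negative past 2-fold) and 20 on the Th17 array (median 0.23, 1 and 0). Fkbp5, a glucocorticoid-responsive HSP90 partner, lay at 1.08 and 1.95, the HSP70 partner St13 at 0.999 and 0.69, Ppid at 0.93 and 0.41, and the prefoldin gene Pfdn5 at −1.11 ± 1.85 and 0.40 ± 0.40 (n = 3 probes). Of 20 measured mitochondrial folding, protease and import genes 17 and 16 were above 0 (medians 0.30 and 0.15), and 1 was 2-fold positive on each array. That gene was Timm17a, a channel subunit of the inner membrane translocase, at 1.10 and 1.05. The protease Lonp1 lay at 0.90 and 0.48, the protease Clpp at 0.79 and 0.25, and Clpx, the ATPase partner of Clpp, at 0.90 and 0.43. On the Th1 array centred on control genes the medians of these 4 lists stayed positive, the smallest being 0.05 for the mitochondrial list. No other centring lowered values on either array, so none could turn a positive median.

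Members near the 2-fold line show how much the counts rest on it. Just inside on the Th1 array were Calr (−1.03), Pdia4 (1.14) and Dnajb3 (−1.14), and just outside Cct8 (0.998), Dnaja1 (−0.99) and Canx (0.98). On the Th17 array Dnaja4 (−1.02), Hspa13 (−1.07) and Dnajb4 (1.16) lay just inside, and Dnajb14 (−0.92), Hspb9 (−0.92) and Hspbap1 (−0.85) just outside. Probes of both signs were present in 16 of the 34 members with several probes on the Th1 array and in 12 on the Th17 array. The same count was not made over all genes. Pooled over the 5886 named genes with several probes, the SD between probes was 0.51 on the Th1 array and 0.49 on the Th17 array. Over these 34 members it was 0.59 on each array.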

How the data were processed

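RNA of 2 hybridisations was measured on two-colour arrays, starting from 500 ng of total RNA that was amplified with amino allyl nucleotides for dye coupling, per the labels. The authors deposited 1 value per probe and array for 36547 probes, read here as log2 ratios. The unit was taken from the values: the most repeated one was −0.8485 on the Th1 array and −0.4263 on the Th17 array, and other repeated values lie log2 of small whole-number ratios from it. Scanner software, background correction, normalisation, centring and direction are not stated in the sources used. The probe medians were −0.11 and −0.05.

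Of the probes, 26926 carried 1 gene in the platform annotation, 203 several and 9418 none; only the first were used, and none of the 203 named a member. Gene numbers of all 84 members matched RefSeq names. Probes of a gene were averaged (133 probes for the members) with Python 3.11.15 and pandas 2.3.3. The members' 3 locations were assigned from general knowledge. A gene was counted at an absolute log2 ratio of at least 1. With 1 array per comparison no test was run. A weaker channel of up to 5 units was searched for each probe among whole-number ratios. The smallest match was taken, and multiples of it fit the same ratio. Alternatives covered centring, probe summary, low signal, annotation and threshold. The scripts were tested on simulated data. The members and lists were chosen with earlier results of these data known. Named genes were all members past 2-fold on an array or in the difference, a panel of core chaperones and the extremes of each location. They also took in the 3 members either side of the threshold, and up to 4 genes of each other list with the largest values. Xbp1, P4hb, Syvn1, Derl3, Ero1b, Ifng, Tbx21, Il17a, Il17f and the remaining members were added after their values were seen. The ratios of Ifng, Tbx21, Il17a and Il17f bear only on the order of the channels. No value column was left unused.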

Additional observations from a re-analysis of the deposited data

Results flagged for a closer look

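For 5 members the 2 arrays lay on opposite sides of 0 and at least 2-fold apart. This difference was not tested, since each group is 1 array. On any side of 0, 7 members were past 2-fold in the difference, against 8.14% of all genes. The share of all genes that also lay on opposite sides was not counted. Dnajc15 lay at −0.23 on the Th1 array and 2.12 on the Th17 array, a difference of 2.35. Dnajb11 lay at −0.96 and 0.64, a difference of 1.60, and Cct4 at −0.62 and 0.59, a difference of 1.22. Hspa13 lay at 0.43 and −1.07, a difference of −1.50, and Hspa4l at 0.49 and −0.54, a difference of −1.04. Without its probe that matched a weaker channel of 1 unit Hspa13 lay at 1.26 and 0.88, on the same side. For Hspa4l 1 probe lay below 0 on both arrays, at −0.04 and −0.63. Cct4 is a subunit of a complex in which 7 of 8 genes lay above 0 on each array, with Cct4 the exception on the Th1 array and Tcp1 on the Th17 array.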

How the results depend on the processing

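Centring on the most repeated value or on control genes moved counts and medians. On the most repeated value 41 members were past 2-fold on the Th1 array, 20 on the Th17 array and 11 in the difference. All genes gave 31.5%, 10.9% and 11.6%. The Th1 medians moved to 1.05 in the ER, 1.04 in the cytosol and 1.19 in mitochondria, with all genes at 0.77. On control genes the Th1 medians turned to −0.054 in the ER and −0.056 in the cytosol, with all genes at −0.33. Those of the difference turned to 0.26 in the ER, 0.21 in the cytosol and 0.0075 in mitochondria, with all genes at 0.31. With the probe of largest absolute value 20 and 16 members were past 2-fold on the Th1 and Th17 arrays (all genes 14.6% and 12%), and a 1.5-fold threshold gave 29, 28 and 15 for the Th1 array, the Th17 array and the difference (all genes 26%, 20.9% and 20.5%). With the median over probes the ER median of the difference turned to 0.016. Among genes with 1 probe the cytosolic median on the Th1 array turned to −0.13 and the mitochondrial one on the Th17 array was 0.79, over fewer genes. Without probes of a weak channel Hspa13 turned to 0.88 on the Th17 array, and 5 members were past 2-fold in the difference. Centring on the probe median left the counts of members past 2-fold within 1.5 times. Its shifts ran with the sign of each median, so the medians could not turn. No probe of several genes named a member, so adding such probes could not change the members' values. No paired analysis was possible because each group holds 1 array. The precision is limited by the 2 arrays, and the deposited values give no signal over background.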
